A study of Gallus gallus with 12 samples.

Results

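A set of 160 transcripts of the embryonic chick lung stood higher at embryonic day (E) 16 than at E14 and kept about the same level at E18. They were 160 of 21390 transcripts measured. The members were chosen by their own values at E14, E16 and E18. All 12 values of a transcript had to reach 8 on the log2 scale, and every value at E16 and at E18 had to exceed every value at E14. The E16 mean had to exceed the E14 mean by at least 0.5, and the E18 and E16 means had to lie less than 0.3 apart. In addition, 1 transcript was left out by name. A limit of 200 members was not reached. The order of these stages and the size of the difference were thus fixed by the choice and are given as a description, without a test. The E15 values entered the choice only through the minimum of 8.

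Total RNA came from whole lungs of untreated white leghorn embryos, collected at E14, E15, E16 and E18, and 3 samples of each stage were hybridized to a custom NimbleGen array, 1 array for each sample. The sources used here do not say whether a sample was 1 embryo or a pool, so the spread between arrays may be partly technical. All values below are the deposited log2 values, in which a difference of 1 is a doubling. The deposited table lists Ensembl transcript identifiers without gene names, and 0 of them occurred in the gene table used here, so no gene is named, the tissue could not be checked against its marker genes, and members other than a pair of examples are given by their rank in the order of the E16 minus E14 mean.

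In the bird lung, air flows through parabronchi, and gas exchange takes place in fine air capillaries that grow out from the parabronchial wall and interlace with blood capillaries. A thin barrier of epithelium, basement membrane and endothelium parts air from blood. This exchange tissue is laid down late in incubation and has to work before hatching, when the chick starts to breathe inside the egg. An RNA that comes up early in this period and then holds its level follows a different course from one that climbs until hatching. In RNA of a whole organ, more RNA per cell and more cells of the type that makes it cannot be told apart.

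Of the 21390 transcripts, 13860 had all 12 values at 8 or more. Among these, 1756 had every E16 array above every E14 array, and 811 of them also had every E18 array above every E14 array. A difference of at least 0.5 between the E16 and E14 means left 422, and the limit on the step from E16 to E18 left 161, of which 160 remained after the named exclusion. Without the minimum of 8 a further 36 transcripts would have been members. Values near the limits were close together. The smallest E16 minus E14 differences among the members were 0.503 and 0.505, and the largest just outside were 0.4999 and 0.4985. The widest E18 to E16 distance inside was 0.299, and the narrowest outside was 0.301. The lowest single value inside was 8.0, and the next below the minimum was 7.96.

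Most of the differences were moderate. The E16 mean exceeded the E14 mean by 0.50 to 2.69 log2 units, with a median of 0.82, which is 1.76-fold, and with quartiles of 0.61 and 1.10. At least a doubling was seen in 54 members, and 8 of these reached 2 log2 units. The E18 mean exceeded the E14 mean by 0.24 to 2.70, with a median of 0.89 or 1.85-fold. Over all transcripts the median difference was -0.03 for E16 minus E14 and -0.17 for E18 minus E14. The gap from the highest E14 array to the lowest E16 array was wide in some members and narrow in others. It ran from 0.02 to 1.55, with a median of 0.43, and was at least 0.5 in 63 members and under 0.1 in 9. From the highest E14 array to the lowest E18 array the gap ran from 0.01 to 1.35, with a median of 0.34, and was under 0.1 in 15 members.

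**Figure D1:**
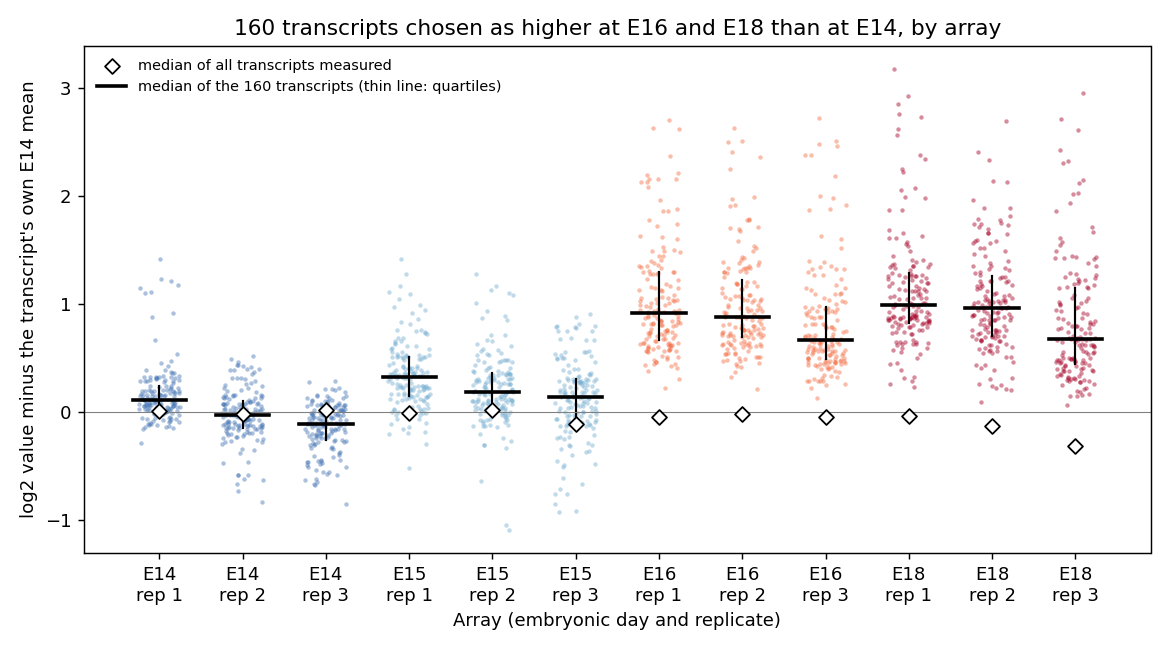
Each point is 1 of the 160 transcripts on 1 array, as its log2 value minus its own mean over the E14 arrays. Thick black lines are the medians of the 160, thin vertical lines span their quartiles and white diamonds the median of all 21390 transcripts on the same array. The medians of the 160 lie between -0.11 and 0.32 on the arrays of E14 and E15 and between 0.67 and 0.99 on those of E16 and E18.

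The member with the largest difference was ENSGALT00000040981. It read 11.82, 9.67 and 9.74 on the E14 arrays, 10.64, 11.12 and 9.65 on the E15 arrays, 13.12, 13.04 and 13.14 on the E16 arrays and 13.59, 12.37 and 13.36 on the E18 arrays, each in replicate order. The arrays at E16 and E18 were all above those at E14 and E15, the E14 and E15 arrays overlapped, and E14 replicate 1 stood well above the other E14 arrays. The mean was 13.10 ± 0.05 at E16 (SD, n = 3) against 10.41 ± 1.23 at E14 (SD, n = 3), a difference of 2.69 or 6.44-fold. At E18 the mean was 13.11 ± 0.65 (SD, n = 3), 0.01 above that of E16. At E15 it was 10.47 ± 0.75 (SD, n = 3), 2.19% of the way from the E14 to the E16 mean.

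In the middle of the order, at rank 80, stood ENSGALT00000039698. Its values were 13.52, 13.59 and 13.23 at E14, 13.61, 13.32 and 13.50 at E15, 14.45, 14.38 and 13.97 at E16 and 14.56, 14.52 and 14.11 at E18. The E15 arrays lay among or just above those at E14, the E16 and E18 arrays overlapped, and replicate 3 was the lowest at both later stages. The mean was 14.27 ± 0.26 at E16 against 13.45 ± 0.19 at E14 (SD, n = 3 each), which is 1.77-fold, and 14.40 ± 0.25 at E18 (SD, n = 3). E15 averaged 13.48 ± 0.14 (SD, n = 3), 3.69% of the way.

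**Figure D2:**
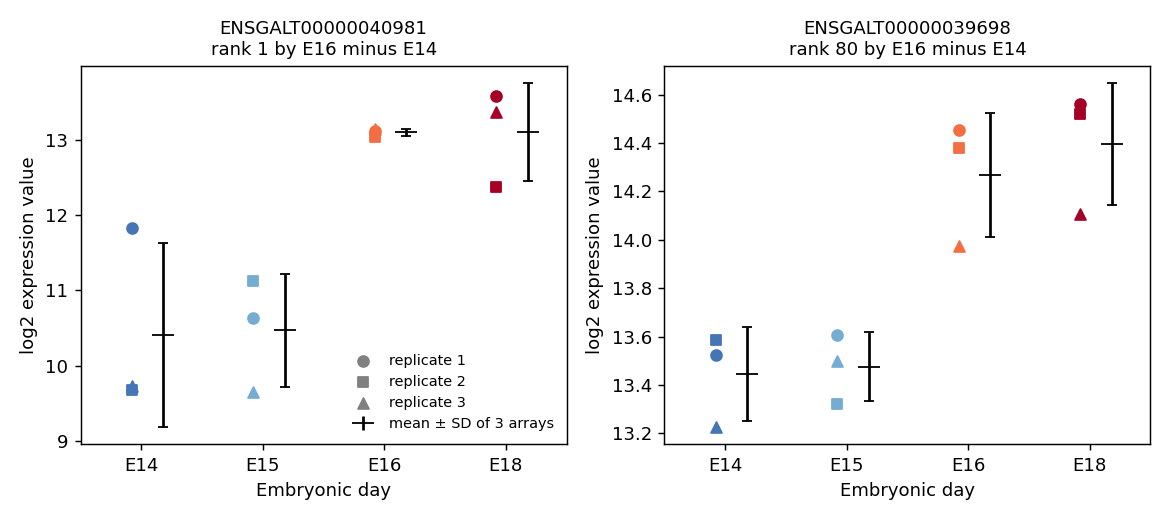
Log2 values on each array for the member with the largest E16 minus E14 mean (left) and the member in the middle of that order (right), by embryonic day. Symbols mark the replicate number, and the black marks give the mean ± SD of 3 arrays. In both, the E15 arrays lie near those of E14, and the E16 and E18 means differ by 0.01 (left) and 0.13 (right).

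Below the first place, the larger differences took several forms. The member at rank 6 had the widest gap between E16 and E14. It read 12.85, 13.13 and 12.59 on the E16 arrays against 11.04, 10.87 and 10.25 on the E14 arrays, and its E15 values of 11.48, 11.38 and 11.46 lay between these ranges and apart from both. At rank 4 the E16 arrays read 12.94, 13.81 and 13.69 against 11.52, 11.72 and 10.68 at E14, while E15 was still at 11.10, 11.00 and 11.00. The member at rank 8 read 9.96, 10.58 and 10.22 on the E16 arrays against 8.52, 8.03 and 8.10 on the E14 arrays. Here the E15 arrays, at 8.88, 8.55 and 8.12, overlapped those of E14. At rank 54 the values lay near the upper end of the scale, whose highest value on any array was 15.98. This member averaged 15.40 ± 0.20 at E18 against 14.32 ± 0.36 at E14 (SD, n = 3 each). In all, 3 members had a value of 15 or more on some array.

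Not every member rested on 3 clear arrays at a stage. At rank 17 the E16 arrays read 11.72, 11.79 and 9.66, so that replicate 3 stood only 0.02 above the highest E14 array, which read 9.64. Its E16 SD of 1.21 was the largest among the members. At rank 116 the E18 arrays read 11.55, 11.27 and 10.34, and replicate 3 was 0.01 above the highest E14 array. The member with the closest replicates, at rank 129, had no stage with an SD above 0.13. Its mean was 12.95 ± 0.04 at E16 and 13.05 ± 0.07 at E18 against 12.35 ± 0.10 at E14 (SD, n = 3 each).

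A group of 9 members shared a feature within E14. On E14 replicate 1 they read at least 1 log2 unit above both other E14 arrays, by 1.24 to 2.09 with a median of 1.61. They held ranks 1, 2, 3, 5, 7, 10, 12, 13 and 14 which made them 9 of the first 14 members. The feature was present in 9 of 160 members, or 5.62%, against 25 of the 13860 transcripts with all values at 8 or more, or 0.18%. The 25 include these 9. No member had the same feature on E14 replicate 2 or replicate 3. Because this group was picked out after its values were seen, no test is given.

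In these 9, E14 replicate 1 lay within or above the range of the E15 arrays. Their median was 12.60 on E14 replicate 1, 11.18 on replicate 2 and 11.25 on replicate 3. At E15 it was 12.48, 12.59 and 12.44 in replicate order. Replicate 1 of E14 lay within the range of the E15 arrays in 4 of the 9 and above it in the other 5. In 8 of the 9, every E15 array was also above E14 replicates 2 and 3, and the exception was the member at rank 1. These orders were not counted over all transcripts, so nothing is read from them. At E16 the medians were 13.68, 13.48 and 13.60, and at E18 they were 13.80, 12.93 and 13.87. E18 replicate 2 was the lowest E18 array in all 9. Over the 12 arrays, the 36 pairs among the 9 correlated at 0.913 to 0.997, so the 9 may not be separate cases. The files do not say whether these transcripts belong to 1 gene or to several, nor which probes they share. Among all members, 5 pairs had consecutive identifier numbers, and 2 of these pairs, at ranks 3 and 10 and at ranks 5 and 7, lay within the 9. The 5 pairs correlated at 0.971 to 0.992 over the 12 arrays, so members outside the 9 may not all be separate cases either. In the 151 members outside the 9 the median E16 minus E14 difference was 0.79 and the largest was 2.17.

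**Figure D3:**
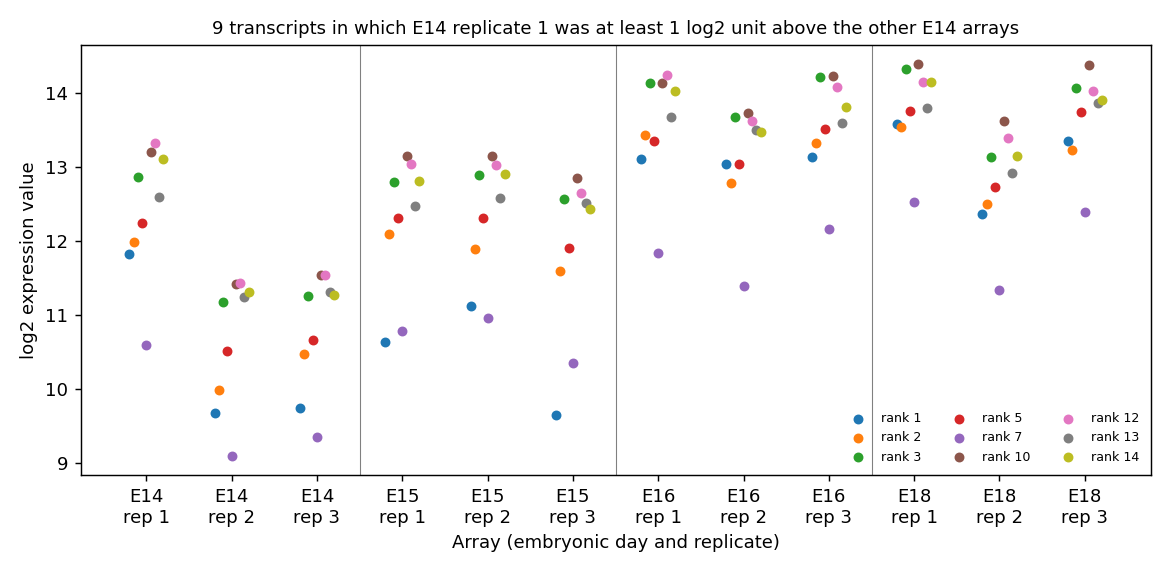
Log2 values of the 9 members in which E14 replicate 1 was at least 1 log2 unit above both other E14 arrays, on each of the 12 arrays. Colours mark the rank of the member by its E16 minus E14 mean, and grey lines part the stages. The medians of the 9 are 12.60 on E14 replicate 1, against 11.18 and 11.25 on the other E14 arrays, and between 12.44 and 12.59 on the E15 arrays.

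The E15 arrays, which the choice hardly used, lay nearer to E14 than to E16. The E15 mean stood at a median of 23.3% of the way from the E14 mean to the E16 mean, with quartiles of 6.05% and 42.7%. In single arrays this median was 36.4% on E15 replicate 1, 22.4% on replicate 2 and 17.3% on replicate 3, or 25.4% ± 9.87 (SD, n = 3). The SD of all values was 2.44 on replicate 3, against 2.60 and 2.62 on replicates 1 and 2. After cyclic loess normalization the members' medians relative to their own E14 mean were 0.33, 0.17 and 0.32 in replicate order. On the deposited values they were 0.32, 0.19 and 0.13, so the low place of replicate 3 depended on the scaling. The E15 mean was under the midpoint in 140 members and at or above it in 20, of which 2 had come at least 75% of the way. It was below the E14 mean in 26. In log2 units the E15 mean exceeded the E14 mean by a median of 0.18, and the E16 mean exceeded the E15 mean by a median of 0.65. Because the E14 and E16 values at both ends of this scale had chosen the members, the place of E15 between them is a description.

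**Figure D4:**
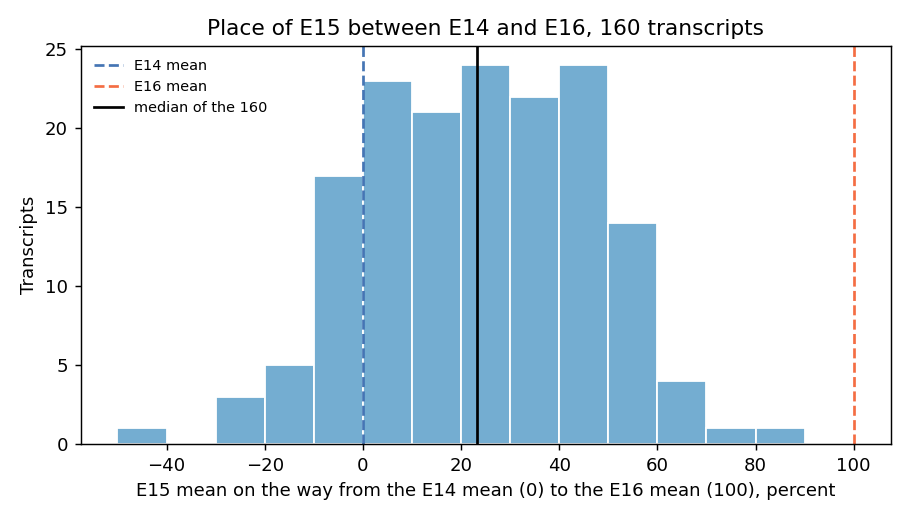
Histogram of the place of the E15 mean between the E14 mean (0%) and the E16 mean (100%), in bins of 10%, for the 160 members. The solid line is the median, 23.3%. Of the 160, 140 lie under 50%, and 26 lie below 0%.

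Counted by arrays, every E15 array was below every E16 array in 129 members, or 80.6%, where 10.2% of the 13860 transcripts with all values at 8 or more showed the same order. Every E15 array was above every E14 array in 39 members, or 24.4%, where 3.46% of those transcripts did. Both held in 30 members. E15 was apart from E16 only in 99 and from E14 only in 9, and in 22 the E15 arrays overlapped both neighbours. These combinations were not counted over all transcripts, so nothing is read from them. The E14 arrays had been chosen as low and the E16 arrays as high. The choice thus had part in the 80.6% and the 24.4%, and nothing is read from their excess either. The members with the highest and the lowest place of E15 show how far single members differed. At rank 153, where E15 had come furthest, the values were 12.17, 12.35 and 12.43 at E15 and 12.27, 12.34 and 12.53 at E16, against 11.76, 12.09 and 11.77 at E14. At rank 40, where it had come least far, E15 read 9.38, 8.81 and 10.01, its mean below that of E14, where the arrays read 9.61, 10.39 and 9.71, and the E16 arrays read 11.12, 11.09 and 10.86.

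The moderated test of limma, fitted to all 12 arrays and adjusted over all transcripts, called no member and no other transcript between E15 and E14 at an adjusted p of at most 0.05, so the share called was 0% of the members and 0% of all transcripts. Without adjustment 14 members were higher at E15, or 8.75%, where 0.477% of all transcripts were. For E16 minus E15 the adjusted test called 0 members as higher and 1 transcript in all, or 0.00468%. Unadjusted p-values were at most 0.05 in 115 members, or 71.9%, where 2.68% of all transcripts were called in this direction. Since the E14 arrays were chosen to be low and the E16 arrays to be high, nothing is read from the excess in either step. For E16 minus E15, 5 members of 9 transcripts in all were called after cyclic loess normalization, 6 of 14 with array SD as a covariate, and 2 of 5 without E18 replicate 3. With the same covariate 1 member was called as higher at E15 than at E14, or 0.625%, where 19% of all transcripts were.

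The contrasts that the choice had used gave the following counts, from which nothing is read. For E16 minus E14, 5 members were called as higher at an adjusted p of at most 0.05, where 0.0982% of all transcripts were. They stood at ranks 6, 16, 21, 23 and 38, so that the member with the largest difference was not among them. Over all transcripts 21 were called. Without E18 replicate 3 the count was 41 members of 124 called in all, without E14 replicate 1 it was 11 of 23, and without E18 replicate 1 it was 7 of 24. Without E16 replicate 3 it was 2 of 24, and without E18 replicate 2 it was 1 of 6. No member was called without any 1 of E14 replicates 2 and 3, the E15 arrays and E16 replicates 1 and 2, when 0 to 6 transcripts were called in all. For E18 minus E14, 124 members were called as higher, where 6.83% of all transcripts were. The number was 67, 51 and 38 without E14 replicates 1, 2 and 3 in turn and 64 without E18 replicate 2, with 2.06% to 3.05% of all transcripts called. After median centring, cyclic loess and quantile normalization it was 142, 159 and 137, with 6.55% to 11.2% of all transcripts called. With only the arrays of E18 and E14 in the fit it was 0, where 0.519% of all transcripts were called. A fit with array SD as a covariate called 12, or 7.5% of the members, below the 21.5% of all transcripts called in that fit. Across the 4 stages the moderated F-test, which has no direction, called 63 members, or 39.4%, where 4.41% of all transcripts were called. Leaving out E18 replicate 1 gave 127 members, but calls then also covered 40% of all transcripts. Counts of 16 to 39 came from leaving out, 1 at a time, each E14 array, each E16 array, E15 replicates 1 and 2 and E18 replicate 2, with 1.05% to 2.75% of all transcripts called.

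The step from E16 to E18 was small by the choice and had no common direction on the deposited scale. The E18 mean was above the E16 mean in 99 members and below it in 61, with a median difference of 0.06, and it lay within 0.1 in 67. The same median difference was -0.14 over all transcripts and -0.22 over those with all values at 8 or more. The members were thus level on a scale where most other transcripts read lower at E18. The arrays of both stages overlapped in 154 members. Every E18 array was above every E16 array in 4, where 5.59% of the transcripts with all values at 8 or more showed this order, and below in 2, where 22.2% did. The limit of 0.3 between the means bears on these counts. At rank 109, where E18 was furthest above, the arrays read 13.79, 14.06 and 13.47 at E18 against 13.75, 13.32 and 13.37 at E16. At rank 24, where it was furthest below, they read 11.91, 11.78 and 11.07 at E18 against 11.97, 11.73 and 11.96 at E16. The members' replicates were further apart at E18, with a median SD of 0.31, than at E16, with 0.20. Over all transcripts the median SD was 0.53 at E18 and 0.17 at E16. Over those with all values at 8 or more, as in the members, it was 0.38 at E18 and 0.12 at E16.

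How level the members were from E16 to E18 differed between arrays and with the scaling. Relative to each member's own E14 mean, the median was 0.99 on E18 replicate 1, 0.96 on replicate 2 and 0.67 on replicate 3. On the same arrays the median of all transcripts was -0.04, -0.13 and -0.31, and the SD of all values on the array was 2.58, 2.38 and 2.22, where the arrays of E14 had 2.61 to 2.62. E18 replicate 3 was the lowest E18 array in 91 of the 160 members. That was a smaller share than the 70.1% of the transcripts with all values at 8 or more. After cyclic loess, which brought the median E18 minus E14 difference of all transcripts to 0.00, the members' medians on the E18 arrays were 1.03, 1.21 and 1.34. The E18 mean then exceeded the E16 mean by at least 0.3 in 94 of the 160 members, was above it in 158, and had a median difference of 0.34. The order of the arrays against E14 held after cyclic loess in all 160, at E16 and at E18. With median centring or quantile normalization the E18 and E16 means stayed less than 0.3 apart in 131 members in either case. The E18 mean was higher by at least 0.3 in 29 members after median centring and in 27 after quantile normalization. The members' median E18 minus E16 difference was 0.15 and 0.14 in these settings, against 0.06 on the deposited values.

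At E16 the arrays stood closer together. The members' median relative to their own E14 mean was 0.92 on E16 replicate 1, 0.88 on replicate 2 and 0.67 on replicate 3, and replicate 3 was the lowest E16 array in 102 of the 160 members, against 38.7% of the transcripts with all values at 8 or more. Within E14, replicate 1 was the highest in 86 members, against 34.9% of those transcripts, and replicate 3 the lowest in 78, against 31.4%. At E15, replicate 1 was the highest in 82 members, against 34.4%. In each of these counts the share among the members was the larger one, but this did not hold for every array. E15 replicate 3 was the lowest E15 array in 87 of the 160 members, a smaller share than the 59.7% of those transcripts. E14 replicate 1 was the lowest E14 array in 16 members, against 28.5%. The part of these array differences in the choice of members was not tested beyond leaving out each array in turn.

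The course from E16 to E18 was one of several. The conditions on the minimum, on order and on the E16 minus E14 mean were met by 421 transcripts after the named exclusion. These split into the 160 members, 245 whose E18 mean was higher than the E16 mean by at least 0.3, and 16 whose E18 mean was lower by as much. The condition that every E18 array exceed every E14 array bears on how few were lower. When the choice used only E14 and E16, and E18 entered only through the minimum of 8, 635 transcripts were chosen. In 421 of them, or 66.3%, every E18 array was above every E14 array, where 10.9% of the transcripts with all values at 8 or more were. Their median E18 minus E14 difference was 1.0, and that of E16 minus E14 was 0.76. The E18 mean was within 0.3 of the E16 mean in 231 of the 635, or 36.4%, against 46.2% of the transcripts with all values at 8 or more. It was higher by at least that much in 252 and lower in 152. The E14 arrays served for the choice and for the reading, so the choice had part in these shares.

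Each array of E14, E16 and E18 was also read on transcripts chosen without it, under the same conditions on the other 11. E16 replicate 1 stood above every E14 array in 97.8% of 138 transcripts so chosen, where 26.6% of all transcripts with the other values at 8 or more did. E16 replicate 2 did so in 99.4% of 155, where 30.8% of all did, and E16 replicate 3 in 86.1% of 252, where 24.6% did. For E18 the shares were 96.6% of 174 on replicate 1, where 32% of all did, 93.6% of 172 on replicate 2, where 25.8% did, and 61.8% of 238 on replicate 3, where 19.5% did. The E14 arrays lay below every E16 and E18 array in 79.9% of 219 for replicate 1, 85.8% of 183 for replicate 2 and 90.2% of 174 for replicate 3, where 10.8%, 11.9% and 11.6% of all did. The array left out was read against arrays that had been chosen as low (E14) or high (E16 and E18), so the choice had part in every one of these shares, and their excess over the shares of all transcripts is a description. The lowest of the 9 shares was that of E18 replicate 3. The size of the difference was also smaller there. The median difference from the E14 mean was 0.42 on E18 replicate 3 and 0.82 on the other E18 arrays in the same 238 transcripts. On E16 replicate 3 it was 0.47, against 0.76 on the other E16 arrays. On E16 replicates 1 and 2 it was 0.89 and 0.80, against 0.85 and 0.79 on the arrays that had made the choice. On E18 replicates 1 and 2 it was 1.03 and 0.96, against 0.87 and 0.83. The E14 arrays in these differences had been chosen as low, so these sizes are a description too.

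**Figure D5:**
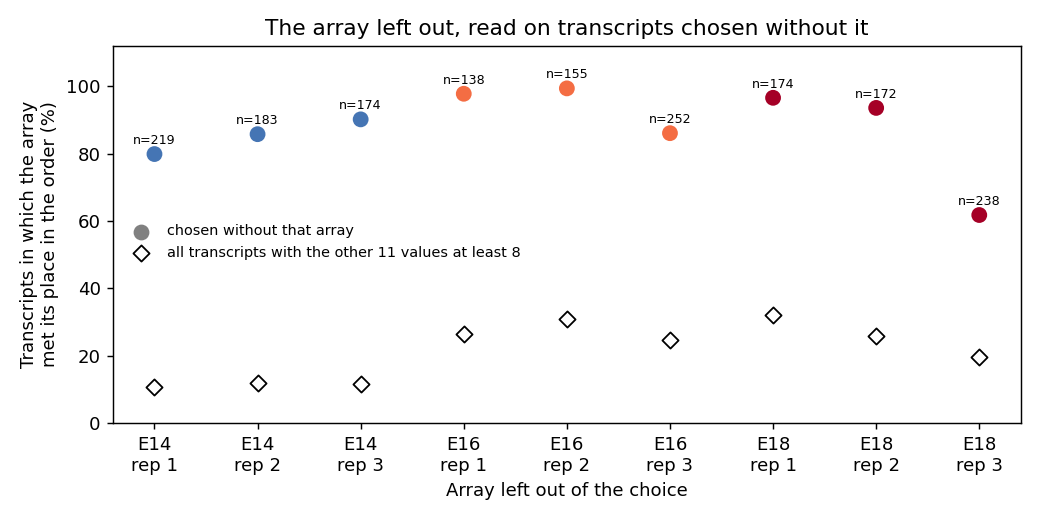
For each array left out of the choice, filled circles give the percent of the transcripts chosen on the other 11 arrays in which the array met its place (above every E14 array for E16 and E18, below every E16 and E18 array for E14), with their number as n. White diamonds give the same percent over all transcripts whose other 11 values were at least 8. The circles lie between 61.8% and 99.4% and the diamonds between 10.8% and 32%.

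The mirror of the rule, with every E16 and E18 array below every E14 array, found 86 transcripts. They differed by -1.81 to -0.50 between E16 and E14, with a median of -0.67, against a median of 0.82 for the 160 members. More transcripts met the order downward than upward before the conditions on size and level, 2393 against 811, on arrays where the median of all transcripts at E18 was below that at E14. In the mirror set the E15 mean stood at a median of 32.5% of the way to E16, and single E15 arrays gave 23.3%, 10.9% and 57.7%, the last on replicate 3. In the members replicate 3 gave the lowest of the 3 values, 17.3%. On this array the median of all transcripts was -0.11 relative to E14, against -0.02 and 0.01 on E15 replicates 1 and 2. After cyclic loess the median of all transcripts on E15 replicate 3 was 0.01, and that of the members was 0.32, against 0.13 on the deposited values. No such value is given for the mirror set. The part of this shift in the place of E15 was not tested beyond this. A further 217 transcripts were level from E14 to E16 within 0.3 and higher only at E18, with a median E18 minus E16 difference of 0.73, against 0.06 for the members. The differences between these sets follow from their rules and were not tested.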

How the data were processed

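Total RNA of 12 whole chick lung samples, 3 at each of 4 stages, was measured on custom NimbleGen arrays. Array signals were put through Robust Multi-array Analysis (RMA) by the authors, a procedure with background correction, quantile normalization of probes and a summary per transcript, and they deposited log2 values for 21390 transcripts and 1 random-sequence control. The Ensembl release, the probes per transcript and the software version are not given in the sources used here. Raw scans were not analysed here. The deposited values were not equal in spread between arrays, with an SD of all values from 2.22 on E18 replicate 3 to 2.62 on E14 replicate 1. The array medians ran from 10.56 on E18 replicate 3 to 10.76 on E14 replicate 2. Precision is limited by the 3 arrays per stage.

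Samples were grouped by the stage and replicate number in their labels. The members and lists were chosen with earlier results of these data known. The rule was applied in Python 3.11.15 with pandas 2.3.3 and numpy 2.4.6, and plots were drawn with matplotlib 3.10.9. Stage means were estimated by limma 3.58.1 in R 4.3.3 from all 12 arrays with no filter, and contrasts and the F-test were adjusted by the Benjamini-Hochberg method over 21390 transcripts at 0.05. Calls of the contrasts were counted in the direction of a higher later stage. Those of the F-test have no direction, so they include transcripts that fell. The code of the fit and of the rule was checked on simulated data, for the rule with far less noise than these arrays had. The check of the rule therefore does not tell how it acts on these arrays. Members named by identifier were to be those at the first rank and at the middle rank, 80. Other members were picked after their values were seen, as extremes of a quantity given beside them or by rank. Marker lists were not applied, since 0 identifiers matched the 25635 genes of the RefSeq table (GRCg7b).

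Other settings tried were 3 further scalings (cyclic loess, median centring, quantile normalization), a filter on the dimmest transcripts, an intensity trend with robust variances, a block for the replicate number, array SD as a covariate, the one-way ANOVA of the study's methods, fits on the compared stages only, omission of each array, and other limits in the rule.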

Additional observations from a re-analysis of the deposited data

How the results depend on the processing

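The number of transcripts that met the rule was 160 on the deposited values and between 182 and 193 after median centring, cyclic loess or quantile normalization, with 130, 64 and 129 of the members among them. It was 54 for a difference of at least 1, 97 for E16 and E18 means less than 0.15 apart, and between 138 and 252 with 1 array left out, the highest without E16 replicate 3. Settings added after the data were seen gave 281 without both E18 replicates 2 and 3, with 92 of the members, 250 without the 4 arrays of lowest SD, with 78 of the members, and 635 without a condition on E18. The place of E15, 23.3%, was between 26.6% and 30.7% after other normalizations and between 20.7% and 29.7% with 1 array left out. The share of transcripts that an array left out also met was 86.3% over the 9 arrays together. Over all transcripts it was 10.8% to 32%, depending on the array. In the settings tried the 86.3% became 83.1% to 90.8%. Each of the 9 choices held 124 to 155 of the 160 members, so most transcripts were counted repeatedly. As the choice had part in every share, nothing is read from how little it changed.

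Members called by the F-test, 63 (4.41% of all transcripts called), were 104 after median centring (5.75% of all), 129 after cyclic loess (8.58%), 97 after quantile normalization (5.29%), 107 without the dimmest transcripts (10.9%), 97 with the intensity trend (6.91%), 48 by the methods' one-way ANOVA (4.17%) and between 16 and 127 with 1 array left out (1.05% to 40% of all). With array SD as a covariate they were 109, or 68.1%, near the 59.9% of all transcripts called there. For E16 minus E14, 5 became 16, 31, 8, 27 and 28 in the first 5 of these settings (0.103% to 0.463% of all). It was 7 with the covariate (18.9% of all), 10 with only the arrays of E16 and E14 (0.14%), and between 0 and 41 with 1 array left out (0% to 0.58% of all). For E18 minus E14, 124 became 142, 159, 137, 139 and 129 in the first 5 of these settings (6.55% to 11.2% of all). It was 12 with the covariate, or 7.5% against 21.5% of all, and 0 with only the arrays of E18 and E14 (0.519% of all). It was between 38 and 129 with 1 array left out (2.06% to 22.5% of all). The highest of these shares came without E18 replicate 1, where 125 members were called. For E15 minus E14 the count was 0, with 1 array left out as well, and 1 with the covariate, where 19% of all transcripts were called. For E16 minus E15, 0 became 5 after cyclic loess (9 called in all), 6 with the covariate (14 in all), and between 0 and 2 with 1 array left out (0 to 5 in all). With the replicate block the counts were 1 for the F-test, 0 for E16 minus E14, 10 for E18 minus E14, 0 for E15 minus E14 and 1 for E16 minus E15, with 72, 2, 142, 0 and 8 transcripts called in all. The deviations of same-numbered arrays from different stages correlated above 0.1 in 3 of 18 pairs of arrays and below -0.1 in 9. These correlations ran from -0.62 to 0.68. The labels do not say whether arrays of the same number shared a batch, and this was not tested. The cause of the changes in the counts was not tested. Because the choice had used E14, E16 and E18, a setting in which the members stay called does not add support.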
